A study of Mus musculus with 56 samples.

Results

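The 10 genes described here encode the postsynaptic apparatus of the neuromuscular junction and were chosen by name. They are the acetylcholine receptor subunit genes Chrna1, Chrnb1, Chrnd and Chrne, the agrin receptor and kinase genes Lrp4 and Musk, the adaptor genes Dok7 and Rapsn, and the synaptic enzyme genes Ache and Colq. They are 10 of the 15539 genes in the count table, and all 10 passed the filter on low counts. RNA of the gastrocnemius, a calf muscle, was sequenced in 56 C57BL/6 mice of 5 months of age, 7 mice in each of 8 groups that combined sex, genotype and wheel. Controls carried floxed Elavl1 alleles (HuR fl/fl) without Cre, and mice labelled HuRm-/- carried the same alleles with Cre driven by the promoter of Mlc1f, which is active in skeletal muscle fibres and not in the nerve. HuR, the protein encoded by Elavl1, binds AU-rich stretches of messenger RNAs. Mice of both genotypes had either a running wheel or a locked wheel in the cage from week 10 to week 20 of age and ate the same chow.

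At the neuromuscular junction, a motor axon releases acetylcholine onto a small patch of the muscle fibre in which the receptor is packed densely. Agrin from the nerve binds LRP4, which activates the kinase MuSK with its adaptor DOK7, and rapsyn then anchors the receptors in clusters. The receptor of adult fibres is built from the alpha, beta, delta and epsilon subunits, and nuclei beneath the synapse transcribe these genes more than nuclei elsewhere in the fibre. Acetylcholinesterase, anchored in the cleft by the collagen-like tail ColQ, ends the signal by breaking down the transmitter. In whole muscle, fewer synaptic nuclei and less RNA per nucleus cannot be told apart.

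Because 3 receptor subunit genes were all higher with genotype in the comparisons below, the 250 bases before their annotated start are shown, with that of Musk, the member with the largest difference between the sexes. RefSeq (GRCm38.p6) held such a stretch for 6 of the 10 members. Capitals mark the N-box CCGGAA, a site of synaptic promoters, and every E-box CANNTG, the site of myogenic factors, on either strand.
Chrna1: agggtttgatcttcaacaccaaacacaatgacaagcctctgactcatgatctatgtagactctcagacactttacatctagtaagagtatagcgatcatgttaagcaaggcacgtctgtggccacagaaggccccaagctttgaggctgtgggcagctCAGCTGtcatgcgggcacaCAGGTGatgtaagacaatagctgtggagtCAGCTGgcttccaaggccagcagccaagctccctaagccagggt
Chrnb1: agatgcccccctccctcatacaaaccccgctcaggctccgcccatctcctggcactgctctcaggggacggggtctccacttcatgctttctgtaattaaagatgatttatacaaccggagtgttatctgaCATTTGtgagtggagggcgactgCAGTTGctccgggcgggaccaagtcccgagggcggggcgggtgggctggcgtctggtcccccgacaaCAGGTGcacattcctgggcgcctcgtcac
Chrne: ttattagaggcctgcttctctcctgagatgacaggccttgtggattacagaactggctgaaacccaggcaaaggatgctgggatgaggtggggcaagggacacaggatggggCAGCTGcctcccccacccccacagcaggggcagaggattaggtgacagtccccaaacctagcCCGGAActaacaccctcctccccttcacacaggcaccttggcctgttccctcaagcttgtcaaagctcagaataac
Musk: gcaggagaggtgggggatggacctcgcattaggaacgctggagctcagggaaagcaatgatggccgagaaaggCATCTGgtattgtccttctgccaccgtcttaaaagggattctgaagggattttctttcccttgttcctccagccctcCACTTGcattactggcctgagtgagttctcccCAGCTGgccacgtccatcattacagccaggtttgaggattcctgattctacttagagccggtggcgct
These stretches lie at chr2:73580339-73580588 (Chrna1, minus strand), chr11:69795938-69796187 (Chrnb1, minus strand), chr11:70619195-70619444 (Chrne, minus strand) and chr4:58285712-58285961 (Musk, plus strand). The last 22 bases of the Chrne stretch, the last 6 of Chrnb1 and the last 2 of Musk lie in exons annotated by GENCODE. Chrne alone among the 6 members held the N-box, which is present in 12% of 32851 RefSeq promoter stretches of this length. Chrna1, Chrnb1 and Musk each held 3 E-boxes and Chrne held 1. Of the members not shown, Ache held 1, and Dok7 held 1 in 1 of its stretches and 0 in the other. Over all stretches 66.2% hold at least 1, with a median of 1. The form CAGCTG, which is 1 kind of E-box, occurred 2 times before Chrna1 and 1 time each before Chrne and Musk, against 13% of all stretches with at least 1.

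HuR targets are known for AU-rich elements in the 3′ UTR, so the pentamer ATTTA was counted in the annotated 3′ UTR of each member (GENCODE M21, GRCm38, the transcript with the longest coding part). Of the 10 members, 7 held it and 3 (Chrne, Rapsn and Colq) did not. Chrna1 held 8 in 2961 bases and Ache 2 in 228 bases, while Chrnb1, Musk and Dok7 held 1 each. Over 13371 genes of the table, 66.1% held at least 1, at a density of 1.82 per kb. In the last 200 bases, 5 of the 9 members with a UTR of that length held it, as did 34.8% of 11745 genes. The overlapping runs of Chrna1 and Ache are shown in the sense of the transcript, with the pentamers in capitals.
Chrna1: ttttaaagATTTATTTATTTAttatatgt
Ache: tatatacactATTTATTTAagggctggga
They lie at chr2:73564479-73564507 (Chrna1, minus strand, 3 overlapping pentamers) and chr5:137294287-137294315 (Ache, plus strand, 2 overlapping pentamers).

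Total counts were between 6639782 and 21633091 per mouse, with a median of 12380363. Elavl1, the targeted gene, was not lower in the mice labelled HuRm-/-. In locked-wheel males it had a mean of 51.0 ± 4.41 CPM (SD, n = 7) in labelled mice and 53.2 ± 7.89 CPM in controls, where CPM stands for the count scaled to a common library size. Over the 4 pairs of groups its average log2 fold change was 0.13 (95% confidence interval 0.01 to 0.24, limma adjusted p = 0.150), and in running-wheel males it was higher in labelled mice (0.44, adjusted p = 0.0242, lost without any 1 of 5 mice). Reads from the floxed exon cannot be separated in counts per gene, so every direction given for genotype rests on the labels. The labelled tissue was checked with the fast-fibre markers, whose summed level was at least 80390 CPM in every mouse. Liver genes were counted as well, and unevenly. Their summed level ran from 29.1 to 4594 CPM in locked-wheel mice (median 237). In running-wheel mice it ran from 28.4 to 847 CPM (median 72.3). The source of these reads was not tested. Male mouse 9 (HuRm-/-, locked) and female mouse 15 (control, locked) correlated least with the other libraries, with a median r across genes of 0.934 and 0.944. Without both, 4, 1 and 5 members were called in the genotype, wheel and sex averages, against 4, 1 and 6 with them.

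Divided by exon length, Rapsn had the highest level of the 10 genes and Chrnd the lowest. Rapsn, the receptor anchor, had 10.5 ± 1.49 CPM per kb (SD, n = 56), followed by Chrna1 with 6.79 ± 2.50 and Chrnb1 with 5.22 ± 1.16. Musk (3.87 ± 1.92), Chrne (2.87 ± 1.26), Dok7 (2.58 ± 0.573) and Ache (1.64 ± 0.713) came next. Colq (0.739 ± 0.202), Lrp4 (0.252 ± 0.0907) and Chrnd (0.230 ± 0.126) were lowest. Rapsn was above Chrna1 in 46 of 56 mice, whereas Chrne and Dok7 were neighbours that could not be ordered, with Chrne higher in 26 mice. Lrp4 and Chrnd were also close, with Lrp4 higher in 35 mice. The labels name a kit that reads the 3′ ends of transcripts and the study's methods describe total RNA. For 3′ reads no division by length applies, and Chrna1 then leads with 29.8 ± 11 CPM against 18.9 ± 2.69 CPM for Rapsn. Chrnd was counted 0 to 24 times per mouse, so that its counting error is large.

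**Figure D1:**
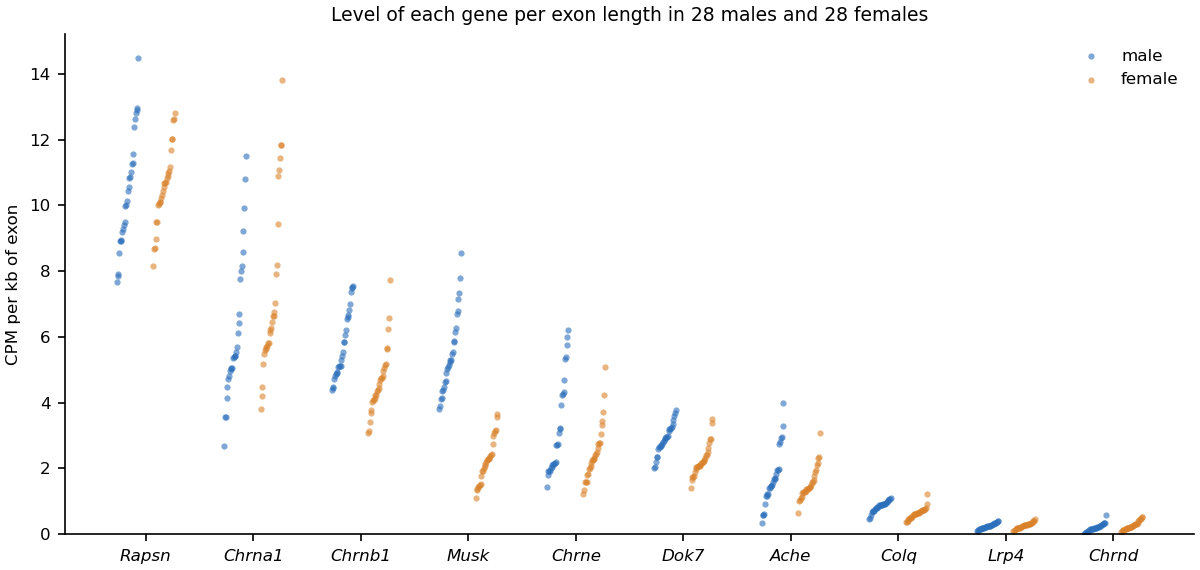
Level of the 10 genes in each mouse, in CPM per kb of exon, with 28 males in blue and 28 females in orange. Rapsn and Chrna1 are highest and Lrp4 and Chrnd lowest, and only for Musk do the 2 sexes separate completely.

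Averaged over sex and wheel, 3 of the 4 receptor subunit genes and Ache were higher in mice labelled HuRm-/-, and the other 6 members did not pass the test. Chrna1 rose 1.55-fold, Chrne 1.53-fold, Ache 1.51-fold and Chrnb1 1.21-fold. The 4 members called were 4 of 10, all higher, where 11.8% of the 14321 genes tested were called and 4.43% were called higher. The median log2 fold change was 0.09 over the 10 members and 0.01 over all genes tested. Within single pairs of male groups, 1 member was called higher on locked wheels, where 1.15% of genes were called and 0.321% were higher, and 4 were called higher on running wheels, where these shares were 2.63% and 0.754%.

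Chrna1 encodes the alpha subunit, which carries the acetylcholine binding sites. In locked-wheel males its lowest, median and highest levels were 18.2, 23.7 and 24.4 CPM in controls and 22.1, 34 and 50.5 CPM in labelled mice. In running-wheel males they were 11.7, 19.6 and 23.5 CPM in controls and 22.2, 35 and 47.3 CPM in labelled mice. Both pairs of groups overlapped. The labelled mice were more widely spread on locked wheels, with a coefficient of variation of 28.1% against 9.73%, and about as widely on running wheels, with 27% against 22.7%. In females the locked-wheel levels were 19.7, 25.1 and 29.7 CPM in controls and 16.7, 35.9 and 52.0 CPM in labelled mice. On running wheels females had 18.4, 25.5 and 30.8 CPM in controls and 24.6, 48.6 and 60.6 CPM in labelled mice. The average log2 fold change was 0.63 (95% confidence interval 0.44 to 0.83, limma adjusted p = 1.43e-05). Within single pairs of groups, Chrna1 was called in running-wheel males (0.91, SE 0.20, adjusted p = 0.00682), and the other 3 differences were 0.51, 0.42 and 0.69 with adjusted p of 0.183, 0.310 and 0.152 in locked-wheel males, locked-wheel females and running-wheel females.

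Chrne encodes the epsilon subunit, which replaces the fetal gamma subunit as the junction matures. Locked-wheel males had 2.45, 3.56 and 5.38 CPM (lowest, median, highest) as controls and 3.71, 7.29 and 10.5 CPM as labelled mice. Running-wheel males had 3.03, 3.44 and 5.19 CPM as controls and 4.57, 6.64 and 10.1 CPM as labelled mice. On locked wheels 6 of the 7 labelled males were above every control, and on running wheels 5 of the 7 were, so that the groups overlapped by the lowest labelled mice. Female controls had 2.06, 3.04 and 5.17 CPM on locked and 3.43, 4.05 and 4.67 CPM on running wheels, and labelled females had 2.25, 3.65 and 8.58 CPM on locked and 3.83, 4.63 and 7.16 CPM on running wheels. The average log2 fold change was 0.62 (95% confidence interval 0.38 to 0.85, limma adjusted p = 0.000238). It was 1.02 in locked-wheel males (SE 0.23, adjusted p = 0.0207) and 0.86 in running-wheel males (SE 0.21, adjusted p = 0.0157). In females the differences were 0.35 (adjusted p = 0.576) and 0.24 (adjusted p = 0.730). The genotype difference was not shown to differ between the sexes (sex by genotype -0.64, 95% confidence interval -1.12 to -0.17, adjusted p = 0.455, 0.00698% of genes called).

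Ache encodes the enzyme that hydrolyses acetylcholine in the cleft. Its lowest, median and highest levels in locked-wheel males were 2.64, 6.47 and 8.96 CPM in controls and 6.74, 12.6 and 15.2 CPM in labelled mice. In running-wheel males they were 1.55, 5.41 and 8.42 CPM in controls and 5.37, 7.90 and 18.4 CPM in labelled mice. The groups overlapped in both cases. In females they were 3.04, 5.84 and 7.39 CPM (controls) and 4.70, 6.02 and 9.74 CPM (labelled) on locked wheels, and 5.92, 6.91 and 10.8 CPM (controls) and 5.92, 8.18 and 14.2 CPM (labelled) on running wheels. The average log2 fold change was 0.59 (95% confidence interval 0.32 to 0.86, limma adjusted p = 0.00166). It was 1.05 in running-wheel males (SE 0.26, adjusted p = 0.0197) and 0.97 in locked-wheel males, where it did not pass (adjusted p = 0.0542). In females it was 0.24 and 0.12 on locked and running wheels, with adjusted p of 0.769 and 0.888. As for Chrne, the difference between the sexes was not called (-0.83, 95% confidence interval -1.37 to -0.29, adjusted p = 0.387).

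Chrnb1 encodes the beta subunit, whose phosphorylation helps to tie the receptor to the cytoskeleton. In running-wheel males controls had 11.1, 11.9 and 15.7 CPM and labelled mice 13, 18.7 and 19.1 CPM (lowest, median, highest). Of the 7 labelled mice, 4 were above every control, and the groups overlapped. Locked-wheel males had 12.2, 12.9 and 17.3 CPM as controls and 12.9, 14.8 and 17.7 CPM as labelled mice. Females had 7.77, 9.30 and 11.9 CPM (controls) and 10.1, 12.8 and 16.7 CPM (labelled) on locked wheels, and 10.3, 12 and 14.2 CPM (controls) and 10.7, 12 and 19.6 CPM (labelled) on running wheels. These 3 pairs of groups overlapped too. The average log2 fold change was 0.27 (95% confidence interval 0.15 to 0.40, limma adjusted p = 0.00182), and in running-wheel males it was 0.43 (SE 0.12, adjusted p = 0.0320). The difference in locked-wheel females was nearly as large (0.42, SE 0.14) and did not pass (adjusted p = 0.135). In locked-wheel males and running-wheel females it was 0.15 and 0.11, with adjusted p of 0.570 and 0.790.

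**Figure D2:**
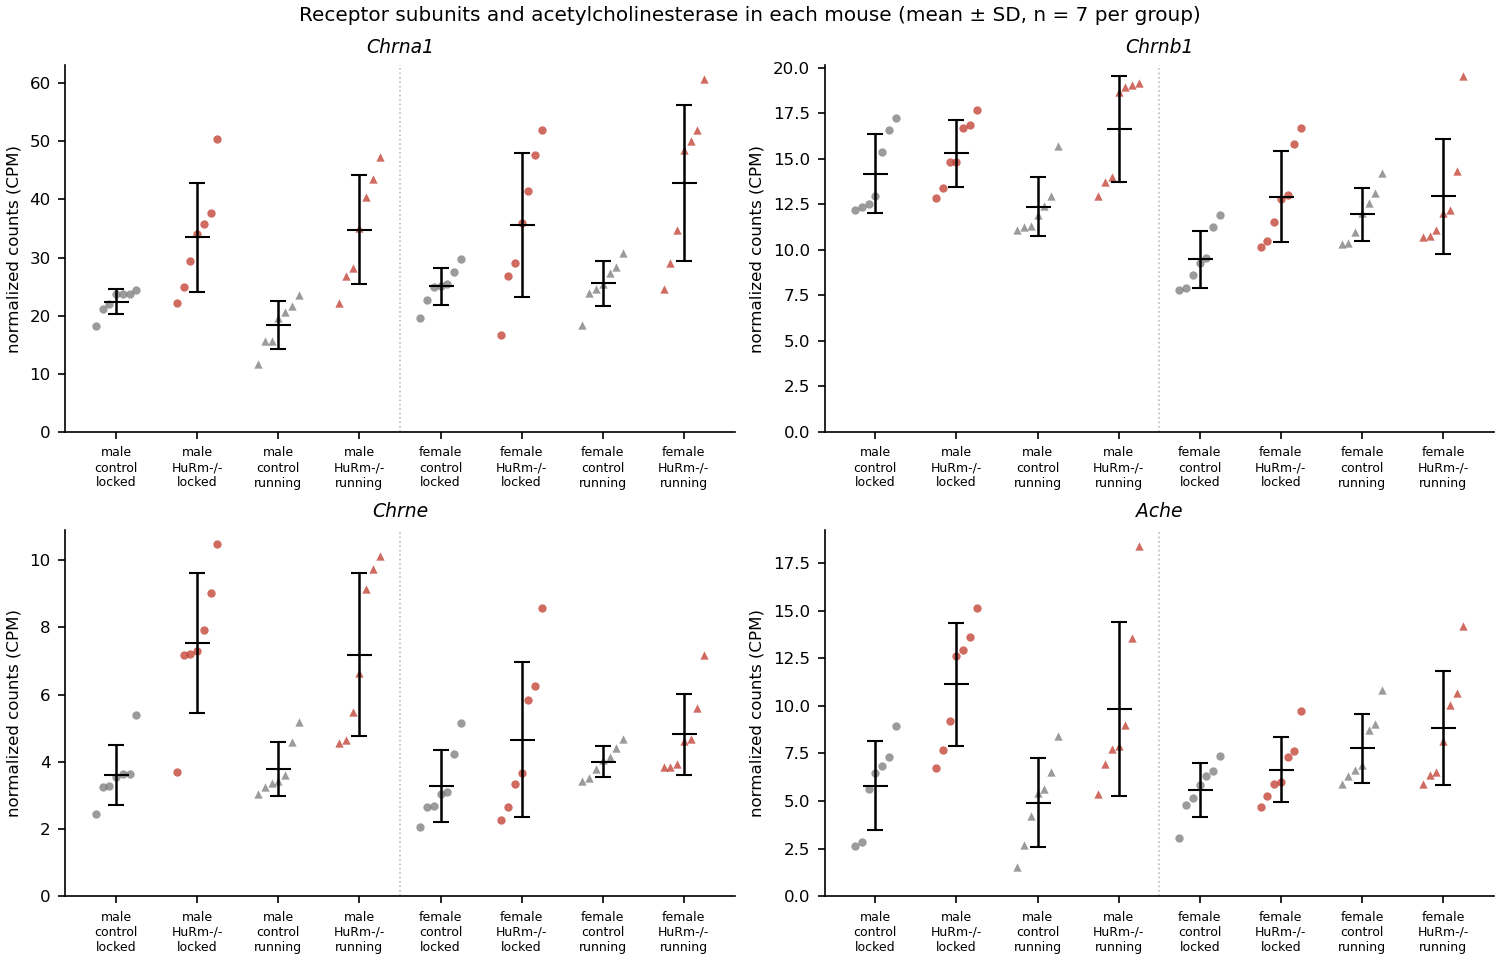
Normalized counts (CPM) of Chrna1, Chrnb1, Chrne and Ache in each mouse, by group. Grey marks controls, red the mice labelled HuRm-/-, circles locked and triangles running wheels; black bars are the mean ± SD of 7 mice. Group means of labelled mice lie above those of their controls in all 4 genes, and the ranges of each pair overlap.

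Some of the calls within males were lost without 1 mouse, while the size of the differences moved little. Chrne in locked-wheel males lost its call without any 1 of 5 mice (control 20 and labelled 9, 11, 23 and 24), with log2 fold changes of 0.94 to 1.02 and limma adjusted p of 0.0536 to 0.0774. In running-wheel males, Chrne lost it without any 1 of 3 mice (control 10 and labelled 2 and 21), with log2 fold changes of 0.77 to 0.82 and adjusted p of 0.0503 to 0.0569. Ache lost it without any 1 of 5 (controls 10, 13 and 25 and labelled 21 and 22), with 0.83 to 1.03 and adjusted p of 0.0554 to 0.0726. Chrnb1 lost it without any 1 of 7 (controls 5, 10 and 25 and labelled 1, 2, 21 and 22), with 0.39 to 0.41 and adjusted p of 0.0648 to 0.0955. The 4 averages kept their calls in every one of 56 fits that left out 1 mouse. In the 2 pairs of female groups limma called 0 of 10 members, where 0.384% of genes were called on locked and 0% on running wheels. In each pair 2 members had an unadjusted p under 0.05, as had 2043 of the 14321 genes on locked and 1807 on running wheels. Of the members, edgeR called 0 in both, and DESeq2 called 0 on locked and 1 on running wheels. Over all genes, edgeR called 63 and 0, and DESeq2 169 and 71.

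Slow-fibre genes differed with genotype too. Of 10 slow-fibre genes, 8 were higher in labelled mice, among them Tnnc1 (slow troponin C, log2 fold change 0.72, limma adjusted p = 1.40e-05), Tnnt1 (slow troponin T, 0.57) and Myl2 (slow myosin light chain, 0.56). Their summed level ran from 1009 to 3432 CPM in the 28 labelled mice (median 2302) and from 961 to 2603 CPM in the 28 controls (median 1581). After removal of group means, Chrna1 correlated with the mean of the slow-fibre genes over 56 mice (Pearson r = 0.63, Spearman rho = 0.66, permutation p = 1e-05 for each, the smallest that 100000 permutations give). This was 1 of 90 relations between members and marker lists or depth, and its adjusted p was 0.0009 in both cases. Without the 2 mice farthest from the median of the slow-fibre score r was 0.60. For Chrnb1, Chrne and Ache the relation with the slow-fibre mean did not pass (r = 0.30, 0.34 and 0.40, permutation adjusted p = 0.290, 0.290 and 0.106). Ache had an r of 0.43 with the mean of the fast-fibre genes, which did not pass either (permutation adjusted p = 0.0903). With slow- and fast-fibre scores as covariates, the genes called over the whole table fell from 1695 to 83 of 14321. Of the 4 members 0 stayed called, with log2 fold changes of 0.32 (Chrna1, limma adjusted p = 0.0951), 0.19 (Chrnb1, 0.225), 0.47 (Chrne, 0.0773) and 0.36 (Ache, 0.228). The part of fibre type in these differences was not tested. Among Schwann cell genes, Sox10 and Pmp22 were also higher in labelled mice (log2 fold changes 0.44 and 0.31), and 0 of the 7 motor axon genes tested were called. With scores of both lists as covariates, the 4 members stayed called, where 1060 of the 14321 genes were called.

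**Figure D3:**
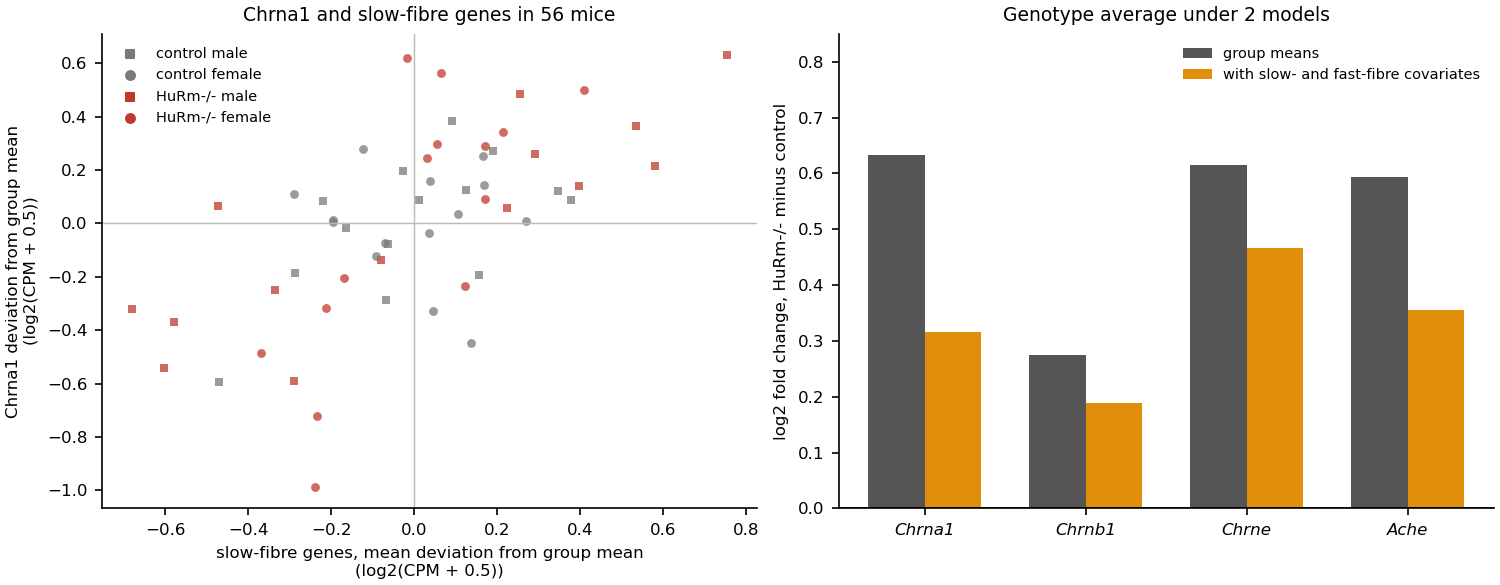
Left, Chrna1 against the mean of the slow-fibre genes in 56 mice, both as deviation from the group mean of log2(CPM + 0.5) (r = 0.63). Right, log2 fold change of labelled against control mice averaged over sex and wheel, from the model of group means and from the model that adds slow- and fast-fibre scores; all 4 values are smaller in the latter, and the bars carry no error.

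The 6 other members had average genotype differences close to 0. Musk had a log2 fold change of 0.06 (95% confidence interval -0.12 to 0.24), Dok7 of -0.06 (-0.20 to 0.08) and Rapsn of -0.05 (-0.14 to 0.03). Colq had -0.06 (-0.27 to 0.14), Lrp4 0.12 (-0.16 to 0.40) and Chrnd 0.03 (-0.41 to 0.48). The interval of Rapsn was the narrowest of the 6 and that of Chrnd, the gene with the fewest counts, the widest. Chrnd ran from 0 to 1.90 CPM over all mice, with 1 locked-wheel male control without a count, and Lrp4 from 0.880 to 4.95 CPM.

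Musk, the kinase that receives the agrin signal, differed most between the sexes. Its level ran from 4.19 to 13.8 CPM in the 28 females (median 8.42) and from 14.3 to 32.2 CPM in the 28 males (median 19.9). Every female was thus below every male, and 0.223% of all genes separated the sexes completely in 1 direction or the other. In controls on locked wheels the lowest, median and highest levels were 5.07, 5.81 and 10.3 CPM in females and 16.9, 25.2 and 32.2 CPM in males. In labelled mice on locked wheels they were 4.19, 8.54 and 13.4 CPM in females and 16.6, 22.2 and 29.4 CPM in males. The sexes stood apart in both cases. On running wheels females had 5.69, 8.78 and 11.8 CPM (controls) and 6.74, 7.57 and 13.8 CPM (labelled), and males had 14.3, 17.4 and 20.0 CPM (controls) and 14.7, 19 and 20.9 CPM (labelled). The average log2 fold change, female minus male, was -1.32 (95% confidence interval -1.50 to -1.14, limma adjusted p = 1.47e-18), a level in females 0.400 times that in males.

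In all, 6 of 10 members were called in the sex average, 1 higher and 5 lower in females, where 33% of all genes were called, 15.8% higher and 17.1% lower. The median log2 fold change was -0.14 over the members and 0.00 over all genes. Beside Musk, the receptor subunit genes Chrnb1 (-0.31, SE 0.06, limma adjusted p = 8.21e-05) and Chrne (-0.36, SE 0.12, adjusted p = 0.0141) were lower in females on average. So were Dok7, the activator of MuSK (-0.35, SE 0.07, adjusted p = 4.69e-05), and Colq, the tail that anchors acetylcholinesterase (-0.43, SE 0.10, adjusted p = 0.000672). In labelled mice, Chrne medians of females and males were 3.65 and 7.29 CPM on locked and 4.63 and 6.64 CPM on running wheels. In controls they were 3.04 and 3.56 CPM on locked and, in the opposite direction, 4.05 and 3.44 CPM on running wheels. Neither control comparison was called for Chrne, here or in any of 12 alternative fits. Its sex by genotype difference was not called, as given above. Dok7 ran from 5.97 to 15 CPM in females (median 9.24) and from 8.60 to 16.2 CPM in males (median 12.4). Colq ran from 1.35 to 4.60 CPM in females (median 2.37) and from 1.70 to 4.17 CPM in males (median 3.41). For both genes the medians were lower in females and the ranges overlapped over most of their width. Chrna1 was the exception, higher in females by 0.25 (SE 0.10, adjusted p = 0.0466). Its call was lost in 33 of the 56 fits that left out 1 mouse and without the 2 libraries least like the others (adjusted p = 0.0612), and with fibre scores as covariates its direction turned (-0.19, adjusted p = 0.324).

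Within genotype and wheel, Musk was called in all 4 comparisons between the sexes. In controls on locked wheels 4 members were lower in females, where 21.5% of genes were called and 11.2% were lower. They were Musk (-1.82), Colq (-0.72, lost without female 12), Chrnb1 (-0.53) and Rapsn (-0.28, lost without female 18 or male 20). Without those mice the limma adjusted p was 0.0546 for Colq and 0.0620 to 0.0711 for Rapsn. In controls on running wheels Musk alone was called (-0.96, adjusted p = 0.000188), where 7.65% of genes were called and 4.57% lower. Rapsn did not pass there, with a value in the direction opposite to that on locked wheels (0.26, adjusted p = 0.0563), and it was called in 27 of the 56 fits that left out 1 mouse and in 6 of 12 alternative fits. In labelled mice on locked wheels 4 members were lower in females (19.3% of genes called, 10.2% lower), namely Musk (-1.43), Chrne (-0.81, adjusted p = 0.00423), Dok7 (-0.50) and Ache (-0.68, adjusted p = 0.0421). The call of Ache was lost without any 1 of 8 mice (adjusted p 0.0611 to 0.0895). On running wheels 3 were lower (5.57% of genes called, 3.26% lower), namely Musk (-1.07), Dok7 (-0.54) and Chrnb1 (-0.38, lost without any 1 of 9 mice, adjusted p 0.0633 to 0.114). The 7 females and 7 males did not overlap for Musk in any of the 4 comparisons, for Chrnb1 in controls on locked wheels and for Dok7 in labelled mice on running wheels; shares of all genes without overlap were 6.98%, 2.97%, 3.21% and 1.83% in controls on locked and running wheels and labelled mice on locked and running wheels.

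Markers of other tissues also differed between the sexes. Adipocyte genes were higher in females in 8 of 10 cases, led by Retn, Cfd and Adipoq (log2 fold changes 1.99, 1.76 and 1.54), and fibroblast genes in 8 of 8. The summed adipocyte level ran from 262 to 848 CPM in females and from 211 to 499 CPM in males. All 10 slow-fibre genes were higher in females, and 6 of 11 fast-fibre genes were lower. With liver and adipocyte scores as covariates, Musk stayed called and the other 5 members did not (limma adjusted p 0.0536 to 0.650), while the genes called over the whole table fell from 4720 to 1246 of 14321. The log2 fold changes of Chrnb1, Chrne, Dok7 and Colq were then -0.29, -0.45, -0.31 and -0.43, close to those without the covariates or larger, and that of Chrna1 was 0.14. With slow- and fast-fibre scores 3 members stayed called, where 1919 of the 14321 genes were called. Musk was called in all 12 alternative fits over the 56 mice, with log2 fold changes of -1.34 to -1.05. The part of other cell types in these differences, that of Musk included, was not tested.

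**Figure D4:**
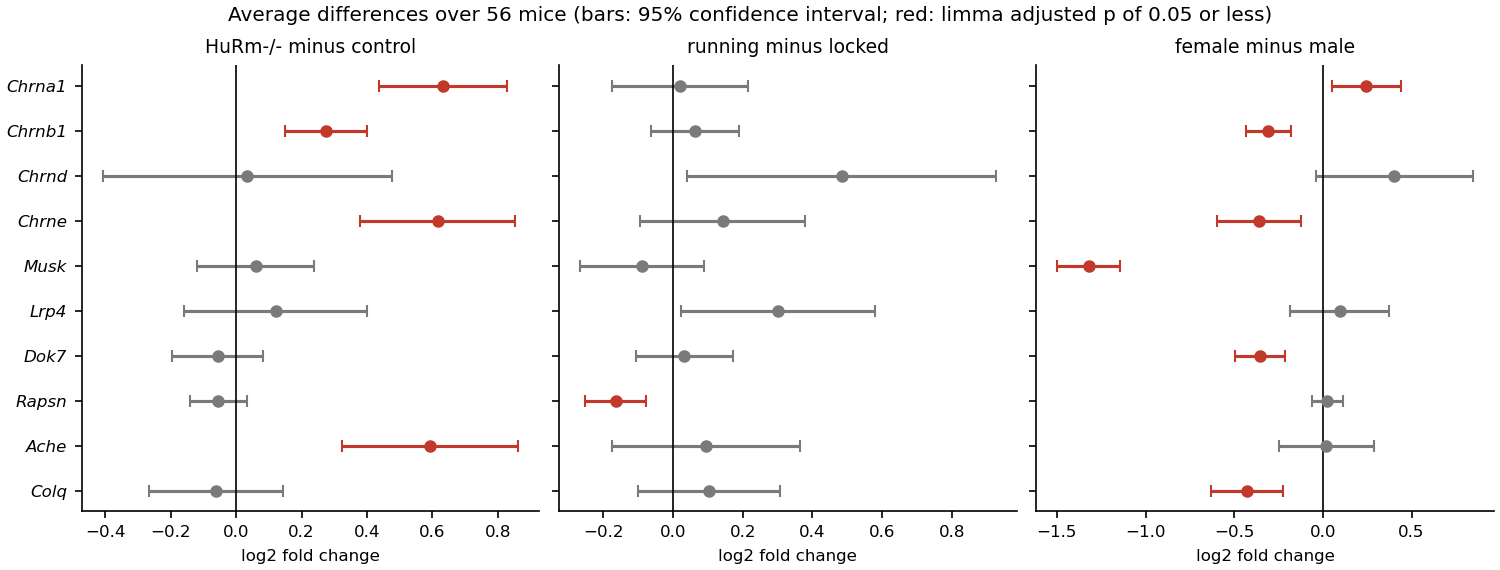
Log2 fold change of each gene for genotype, wheel and sex, averaged over the other factors in 56 mice, with 95% confidence intervals; red marks a limma adjusted p of 0.05 or less. Musk stands out in the sex panel at -1.32, and the receptor genes Chrna1, Chrnb1 and Chrne with Ache in the genotype panel.

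Rapsn, the clustering protein of the receptor, was the one member called in the wheel average, where 5.96% of genes were called and 2.54% were lower. The median log2 fold change was 0.08 over the members and 0.01 over all genes. In male controls Rapsn had 19.6, 20.9 and 26.1 CPM (lowest, median, highest) on locked and 14.3, 16.7 and 18.8 CPM on running wheels. In labelled males it had 17.1, 19.9 and 23.4 CPM on locked and 13.8, 16.1 and 19 CPM on running wheels. All running male controls were below all locked ones, whereas the labelled groups overlapped; 0.999% of genes did not overlap in male controls. In female controls it had 14.7, 18.6 and 21.1 CPM on locked and 18, 19.8 and 22.8 CPM on running wheels, and in labelled females 17.1, 18.8 and 23.1 CPM and 15.7, 19 and 19.9 CPM. These female groups overlapped widely. The average log2 fold change was -0.17 (95% confidence interval -0.25 to -0.08, limma adjusted p = 0.0141). It was -0.37 in male controls (SE 0.09, adjusted p = 0.00962), where 1 member was called beside 3.24% of genes and 1.75% lower. It was -0.37 in labelled males (adjusted p = 0.106), 0.18 in female controls (adjusted p = 0.233) and -0.11 in labelled females (adjusted p = 0.567). Rapsn overlaps the noncoding gene Gm13778 on the opposite strand, and whether counting used strand is not given in the sources used here, so reads of the pair may not be separable. Chrne, Ache and Colq also overlap other annotated genes, which are not among the genes counted. These include Gm42456 on the strand opposite to Ache and the protein-coding Gm49387 on the strand of Colq. The same limit holds for them.

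In the other 3 wheel comparisons limma called 0 of 10 members. There 0.0419%, 8.74% and 3.85% of genes were called in labelled males, female controls and labelled females. An unadjusted p under 0.05 was reached by 2, 1 and 1 members and by 1821, 3342 and 2492 of the 14321 genes. The tools edgeR and DESeq2 each called 1 member in labelled males, beside 46 and 245 genes, and 0 in either female comparison, beside 1610 and 1645 genes in controls and 569 and 679 in labelled mice. Among male mice alone, Musk passed in the wheel average too (-0.40, adjusted p = 0.00576), and among females alone Ache did (0.43, adjusted p = 0.0422). For these fits of part of the mice the share of all genes called was not computed, so both calls stand without it. Lrp4 and Chrnd had average wheel differences of 0.30 (95% confidence interval 0.02 to 0.58, adjusted p = 0.204) and 0.48 (0.04 to 0.93, adjusted p = 0.198), which did not pass. The largest single wheel difference of Lrp4 was in labelled females (0.71, adjusted p = 0.110).

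The response to the wheel differed between the sexes in 2 members, Rapsn and Musk, where 13.7% of all genes were called and 6.79% with a positive difference. The difference of log2 fold changes, female minus male, was 0.40 for Rapsn (95% confidence interval 0.23 to 0.58, limma adjusted p = 0.00113) and 0.61 for Musk (0.25 to 0.97, adjusted p = 0.0148). For Musk the log2 fold change on running wheels was -0.47 (adjusted p = 0.0549) in male controls and -0.32 (adjusted p = 0.349) in labelled males, and 0.38 (adjusted p = 0.292) and 0.05 (adjusted p = 0.938) in female controls and labelled females. All 10 members had a positive value in this comparison, with a median of 0.32, against a median of 0.00 over all genes. The median summed level of 10 general skeletal muscle genes moved in the same directions. From locked to running wheels it went from 109862 to 132657 CPM in female controls and from 118006 to 131083 CPM in labelled females. In male controls it went from 135103 to 125937 CPM and in labelled males from 149477 to 140569 CPM. These sums were not tested. Rapsn kept its call in all 12 alternative fits. Musk lost it with liver and adipocyte (adjusted p = 0.182), slow- and fast-fibre (0.10) and Schwann and motor axon covariates (0.0530). All 8 fibroblast genes were called in the same comparison, in the opposite direction (median log2 -0.83). The wheel response by genotype, averaged over the sexes, was called for 0 of 10 members by limma (0.00698% of genes), edgeR and DESeq2. There 0 had an unadjusted p under 0.05. Within males and within females these tools also called 0 members. Over all genes limma called 5 and 0, edgeR 0 and 0, and DESeq2 13 and 2. An unadjusted p under 0.05 was reached by 1 member in each sex, beside 1275 genes in males and 1472 in females.

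**Figure D5:**
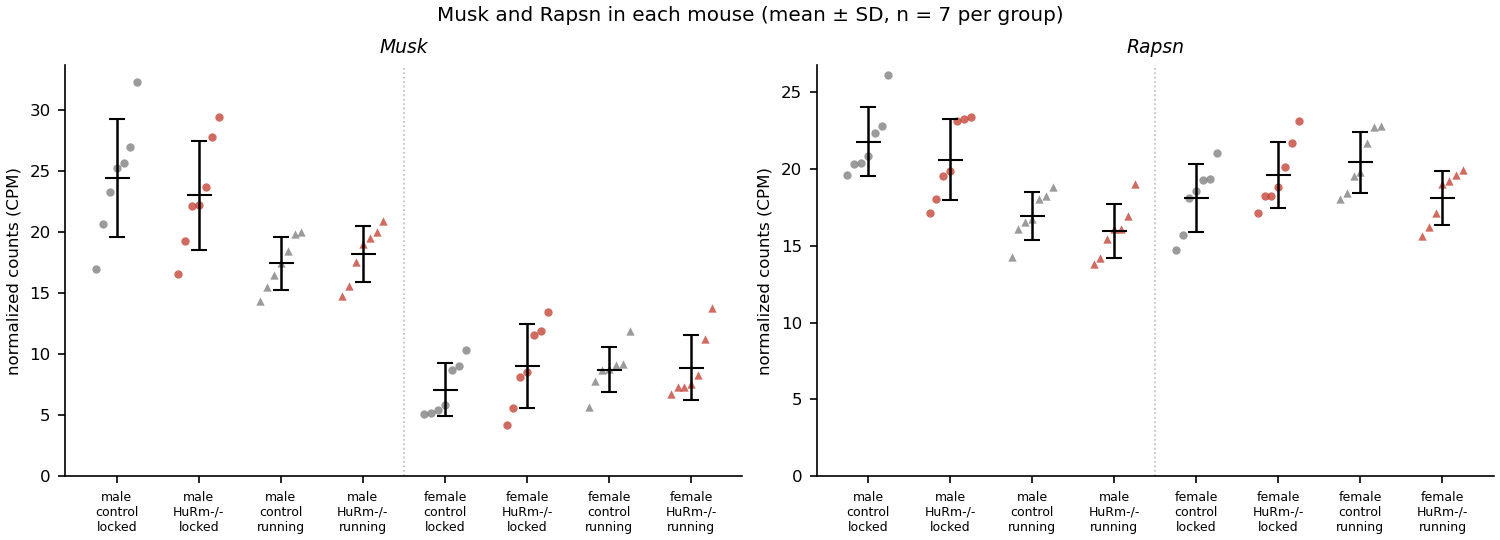
Normalized counts (CPM) of Musk and Rapsn in each mouse, by group, with the mean ± SD of 7 mice; grey marks controls, red the mice labelled HuRm-/-, circles locked and triangles running wheels. For Musk all 28 females lie below all 28 males, and for Rapsn the male groups are lower on running wheels.

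Within the receptor, the share of Chrne among the counts of the 4 subunit genes is independent of scaling between libraries. It was 8.70% in females and 11.2% in males on average, a difference of -2.47 percentage points (two-sided permutation test within genotype and wheel, p = 0.00047, adjusted p = 0.00141). The lowest, median and highest shares in locked-wheel labelled males were 8.43%, 13.4% and 16.3%, and in locked-wheel labelled females 4.89%, 7.88% and 13.5%. On running wheels the medians in labelled males and females were 11.6% and 8.26%. In controls the medians of males and females lay closer together, at 8.43% and 7.82% on locked and 10.9% and 9.52% on running wheels. Whether the sex difference in this share depended on genotype was not tested. Labelled mice had 10.5% and controls 9.40% (difference 1.07 points, p = 0.120), and running and locked mice 10.0% and 9.82% (difference 0.22 points, p = 0.725), in the same permutation test. The log2 ratio of Chrne to Chrna1 differed by -0.59 between the sexes (p = 1e-05, the smallest that 100000 permutations give) and by 0.00 between genotypes (p = 0.999). The adjustment covered 3 comparisons, and that between the sexes kept its direction and a p of at most 0.00106 without any 1 mouse.

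Between mice of 1 group, members varied together in 2 of 45 pairs. Chrna1 and Ache correlated with a Pearson r of 0.51 (permutation p = 8e-05, adjusted p = 0.00247) and a Spearman rho of 0.57 (p = 3e-05, adjusted p = 0.00135), and r was 0.60 without the 2 mice farthest from the median of Chrna1. Chrne and Ache correlated with an r of 0.48 (permutation p = 0.00011, adjusted p = 0.00247) and a rho of 0.51 (p = 9e-05, adjusted p = 0.00202), with 0.51 after the same step. Chrna1 and Chrne came next (r = 0.46, permutation p = 0.00372, adjusted p = 0.0558; rho = 0.45, p = 0.00233, adjusted p = 0.0349). The 45 values ran from -0.31 to 0.51 with a median of 0.06, so that most pairs were only weakly related. The genes outside the 10 that were most like the members' mean over the 56 mice were Prpf40b (r = 0.61) and Pnck (0.59). Next came Cobl (0.58), Adssl1 (0.57) and Smtn (0.57). The members' own r with that mean ran from 0.14 for Rapsn to 0.71 for Chrna1. Each member is part of that mean, which raises its r, so these values cannot be set beside those of the outside genes.

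Other genes of the junction pathway were read from lists chosen by function. Of 19 genes of agrin and MuSK signalling, 3 were called with genotype, namely Crkl, the adaptor that binds DOK7 (log2 fold change 0.88, 1.10 and 0.638 CPM in labelled and control mice), Ctnnb1 (-0.19) and Rac1 (-0.15). With sex 9 were called, 2 higher and 7 lower in females, and with the wheel 0 by limma. Of 10 genes of neuregulin signalling and synaptic transcription, Dach2 alone was called with genotype. Dach2, a repressor of Myog, fell by 1.19 on the log2 scale, from 10.2 to 5.18 CPM (limma adjusted p = 5.42e-06). Of 20 scaffold and dystroglycan genes, 3, 4 and 10 were called with genotype, wheel and sex, and of 17 genes of the synaptic basal lamina 3, 1 and 9. Sgcb (-0.31), Hspg2 (0.18) and Lamb2 (0.14) were among those that moved with genotype.

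Genes that rise after denervation showed no common direction with genotype. Of 14 tested, Cdkn1a was higher in labelled mice (log2 fold change 0.38), and Gadd45a (-0.56), Igfbp5 (-0.24) and Myod1 (-0.22) were lower, with a median of 0.07. With sex 10 were called, 6 higher in females, led by Sln (0.84), Myog (0.80) and Gadd45a (0.65), and with the wheel Myh8 was lower on running wheels (-0.39). Of 5 glycosylation genes of congenital myasthenia, Dpagt1 was higher in labelled mice (0.33), and Alg14 (0.35) and Alg2 (0.34) were higher in females. These shares stand beside the 11.8%, 5.96% and 33% of all genes called with genotype, wheel and sex.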

How the data were processed

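Gastrocnemius RNA of 56 mice was measured in 8 groups of 7. The authors deposited 1 table of whole-number counts per gene for 15539 genes and 56 mice. The submitters' processing notes name R 4.0.3, edgeR 3.38.4 and the builds GRCm38 and mm10, and the aligner and annotation are not given in the sources used here. The labels describe a 3′ mRNA kit with 50-base forward reads, whereas the study's methods describe paired reads of ribosomal RNA-depleted RNA, so the division of levels by exon length may not apply. Differences between groups for 1 gene do not depend on it.

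Genes were filtered with filterByExpr of edgeR 4.0.16 by group (minimum count 10), scaled with TMM factors and tested with limma 3.58.1 (voom, 8 group means over all 56 mice, R 4.3.3). Benjamini-Hochberg adjustment covered all 14321 genes tested, and a gene was called at an adjusted p of 0.05 or less. Genotype was taken as labelled HuRm-/- minus control, wheel as running minus locked and sex as female minus male. Averages weighted the groups equally. Correlations used log2(CPM + 0.5) after removal of group means, and their tests 100000 permutations within groups. The tests of the Chrne share permuted the labels of 1 factor 100000 times among mice alike in the other factors. The tests were checked on simulated counts. Total counts ranged from 6639782 to 21633091, and counting error is largest for Chrnd. The 168 pairs of mice within groups differed by more than counting noise, with a chi-square statistic of 3.30 to 46.1 for each degree of freedom. The labels do not say whether the mice of a group shared litters.

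The 10 genes and all lists were chosen with earlier results of these data known. Named were the 10 genes in every comparison, Elavl1, up to 3 called genes of each list with the largest change in each average, and the 5 other genes most like the mean of the 10. Myod1 was named in addition, after its values were seen. The result of 1 listed gene is not reported here. Alternatives were edgeR's quasi-likelihood test, DESeq2 1.42.0, DESeq2 size factors, upper-quartile factors, limma trend (prior count 2), sample quality weights, no filter, at least 10 counts in every mouse, 3 pairs of marker covariates, subsets of the mice, a replicate block and leaving out each mouse. Single-list covariates and leaving out the 2 libraries least like the others were added after seeing the data. Promoter sequences are from RefSeq (GRCm38.p6), and transcripts from GENCODE M21.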

Additional observations from a re-analysis of the deposited data

Results flagged for a closer look

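Single mice stood apart from the other 6 of their group in 5 of 80 combinations of gene and group checked. For each, the gap to the nearest mouse was divided by the range of the group and set against the 95% limit for 7 mice, which chance passes in about 5% of groups. Mouse 13 of the male running controls was highest for Chrnb1, with 15.7 CPM against 13 in the next mouse (ratio 0.597). Mouse 8 of the labelled running females was highest for the same gene, with 19.6 CPM against 14.3 (0.590). Mouse 18 of the male locked controls was highest for Chrne, with 5.38 CPM against 3.65 (0.591). For Dok7, mouse 32 of the female locked controls was highest, with 14.5 CPM against 10.3 (0.603), and mouse 22 of the labelled running females lowest, with 5.97 CPM against 8.74 (0.644).

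The wheel response differed between the sexes for Musk, by 0.61 on the log2 scale (female minus male, limma adjusted p = 0.0148), and for Rapsn, by 0.40 (adjusted p = 0.00113).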

How the results depend on the processing

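The genotype average called 4 members and the wheel average 1 in all 56 fits that left out 1 mouse; the sex average called 5 to 6, genotype within sex and wheel 2 to 6, wheel within sex and genotype 1 to 2, sex within genotype and wheel 11 to 14, and the interactions 2 to 3. The Elavl1 genotype average ran from 0.10 to 0.15, and the Chrne share differences from 0.871 to 1.27 (genotype), 0.0241 to 0.421 (wheel) and -2.67 to -2.31 points (sex).

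Members called changed by more than 1.5 times as follows. Slow- and fast-fibre covariates, or the slow-fibre covariate alone, left 0 of 4 in the genotype average, and running-wheel mice alone left 2. Males alone gave 2 in place of 1 in the wheel average. In the sex average, 1 of 6 was left with liver and adipocyte, 3 with fibre and 2 with adipocyte covariates. Genotype within sex and wheel had 5 calls, against 3 with Schwann and motor axon and 0 with fibre covariates and 2 with only the compared groups. Wheel within sex and genotype had 1, against 2 with edgeR, DESeq2, DESeq2 size factors, 10 counts in every mouse, liver and adipocyte covariates or only the compared groups, and 3 with quality weights. Sex within genotype and wheel had 12, against 4 with liver and adipocyte and 7 with fibre covariates. The interactions had 2, against 1 with any of the 3 pairs of covariates. In these counts the cause was not tested. For the fits of part of the mice the share of all genes called was not computed.

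Directions turned only for differences that had not passed, except Chrna1 with sex and Rapsn with the wheel. For genotype, running-wheel mice alone gave Chrnd -0.19, Colq 0.0644 and Lrp4 -0.0027, locked-wheel mice alone gave Rapsn 0.0182, and Lrp4 had -0.0270 with fibre and -0.0344 with slow-fibre covariates. For the wheel, males alone gave Chrna1 -0.14, Chrnb1 -0.0379, Dok7 -0.0545, Ache -0.25 and Colq -0.0757, and females alone gave Musk 0.22 and Rapsn 0.0371. Chrna1 had -0.0287 with quality weights, -0.0138 with Schwann and motor axon, -0.0702 with fibre and -0.0727 with slow-fibre covariates. Dok7 had -0.0146 with liver and adipocyte covariates and -0.0030 with the liver covariate or without the 2 libraries least like the others. For sex, fibre covariates gave Chrna1 -0.19, Ache -0.17 and Lrp4 -0.24, and the slow-fibre covariate alone gave -0.20, -0.35 and -0.12. Locked-wheel mice alone gave Rapsn -0.17, Ache -0.31 and Lrp4 -0.14. Rapsn had -0.0097 with liver and adipocyte and -0.0013 with adipocyte covariates, and Lrp4 -0.0087 with the fast-fibre covariate. Ache had -0.0685 with edgeR, -0.0713 with DESeq2, -0.0074 with limma trend, -0.0264 with quality weights, -0.0269 with Schwann and motor axon, -0.16 with liver and adipocyte and -0.18 with adipocyte covariates. Leaving out 1 mouse turned Chrnd with genotype (-0.0300 to 0.12), Chrna1 with the wheel (-0.0257 to 0.0474) and Ache with sex (-0.0390 to 0.0608).

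Mouse numbers were shared only between the sexes, by different animals, 22 numbers in all. Deviations from the group means of same-numbered mice correlated between -0.18 and 0.19 for the 12 numbers shared within genotype and wheel (5 over 0.1) and between -0.28 and 0.47 for the other 10 (3 over 0.1), so the numbers were not taken as pairs. With the number as a replicate block (consensus correlation 0.0222) the counts stayed at 4, 1, 6, 5, 1, 12 and 2. Depth limits Chrnd most, at 0 to 24 counts per mouse. Whether males and females, or running and locked mice, were processed together is not given in the sources used here.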
